A study of Mus musculus with 24 samples.

Results

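The comparison described here is the knockdown of *H19* in brown cells at d3 of differentiation. It set 3 libraries of siH19-treated cells against 3 libraries of siCtrl-treated cells, 6 of the 24 libraries of the series, and covered the 12500 of 49452 listed genes that reached 1 FPKM (a fragment count corrected for transcript length and library size) in at least 3 of these 6 libraries. The cells were stromal-vascular fraction (SVF) precursors from the brown adipose tissue (BAT) of C57BL/6 mice, which per the study's methods were males of 6 to 8 weeks. The other groups used for comparison were siCtrl and siH19 cells from BAT at d0, before differentiation, and from visceral white adipose tissue (vWAT) at d3, with 3 libraries each. SVF holds every cell that remains once lipid-filled adipocytes have been removed, so these were mixed primary cultures, and tissue of several mice could be pooled. Both groups received an siRNA at 100 nmol/l by nucleofection, siCtrl being a non-targeting control. Brown cells of both groups were first induced with insulin, dexamethasone, rosiglitazone, indomethacin and triiodothyronine, and afterwards kept with triiodothyronine. Sources differ on IBMX, which the sample labels give for both depots and the methods for white cells. The labels do not say whether the 3 libraries of a group came from separate cultures or animals, so the p-values measure the spread between these libraries, which may be partly technical.

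*H19* is an imprinted long noncoding RNA that is abundant in fetal tissues and silenced in most organs after birth. Brown adipocytes differ from white ones in burning fat for heat, and during differentiation fibroblast-like precursors take up lipogenic and mitochondrial genes while they give up the actin stress fibres and matrix of the precursor state. In bulk cultures, fewer cells of a type and less RNA per cell cannot be told apart, and this holds for every result below.

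The study methods and the sample labels do not settle which *H19* siRNA was used for these libraries, because the methods for this experiment name siH19 while the sample titles carry siH19 followed by the number 3, and the titles of the control libraries carry siKO. Both candidate guide strands are therefore shown as designed, with the seed (bases 2 to 8 from the 5′ end) in capitals, each with the 19 bases of *H19* that it matches.
siH19 guide: uCUUGAUUcagaacgagacgg
siH19 target: gtctcgttctgaatcaaga
siH19#3 guide: uGGUGUUCaagaaggcuggat
siH19#3 target: ccagccttcttgaacacca
Both matched 5 of the 7 *H19* transcripts of GENCODE M21 without a mismatch. In 1 of these transcripts the siH19 target lay in exon 3 of 3 at chr7:142576255-142576273 (GRCm38, minus strand), and the siH19#3 target crossed the junction of exons 2 and 3, with 12 bases at chr7:142576613-142576624 and 7 bases at chr7:142576524-142576530.

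*H19* (ENSMUSG00000000031, GRCm38 chromosome 7, 142575529 to 142578143, minus strand) was listed at 99.7, 86.4 and 83.2 FPKM in siCtrl and at 12, 12.1 and 16.9 FPKM in siH19. The groups were far apart, and siH19 cells held 15.3% of the siCtrl level. On the log2(FPKM + 1) scale used throughout, limma gave a fold change of -2.64 with a standard error of 0.14 (adjusted p = 0.0013). The knockdown was deeper at d0, where the mean fell from 130 to 4.36 FPKM and the log2 fold change was -4.63, and the difference between the days was 1.99 (adjusted p = 0.0023). vWAT cells at d3 had far less of the transcript to begin with, 8.59 FPKM in siCtrl and 0.528 FPKM in siH19, and since a pseudocount of 1 compresses such low values, the similar log2 fold change there (-2.68) stands for a larger proportional loss.

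Of the 12500 genes, 799 were higher in siH19 cells (6.39%) and 272 were lower (2.18%) when calls needed an adjusted p (Benjamini-Hochberg) below 0.05 and a 1.3-fold change. The list counts below are to be read beside these shares of all genes. The 3 siH19 libraries lay wholly above or wholly below the 3 siCtrl libraries for each called gene. Calls were made on these same libraries, so this separation largely follows from them and is no further support. Among all genes, 24.2% lay wholly above and 13.1% wholly below. Most changes were moderate, with a median size of 1.48-fold among the higher and 1.42-fold among the lower genes, and 45 rose and 29 fell by at least 2-fold. A small upward offset ran through all genes, of which 59.5% had a fold change above 0 and 40.5% one below it (median log2 fold change 0.05). When libraries were rescaled by the trimmed mean of log ratios, this median became 0.00 and 616 genes were then higher (4.93%) and 425 lower (3.4%), so small rises common to many genes depend on the scaling. A gene that reached 1 FPKM in 1 group only had to differ to be tested, which held for 42 of the higher and 17 of the lower genes. The list counts below hold 10 such genes (*Hoxb9*, *Wnt2*, *Nuak2*, *Sema3e*, *Bdnf*, *Ereg*, *Hbegf*, *Adcy7*, *Lama5* and *Gatm*). All 272 lower genes and 616 of the 799 higher genes were called the same way after rescaling. A single library, siCtrl replicate 2, mattered most for the number of calls. The fit without it called 464 genes higher and 174 lower, and 606 of them were called the same way in the main fit. Of the 144 called genes named in the text, 114 kept the call whichever library was left out. Without siCtrl replicate 2 the calls lost were those of *Adcy7*, *Adgre1*, *Axl*, *Bdnf*, *Cnn1*, *Col12a1*, *Coq8a*, *Cs*, *Ctss*, *Cyp2e1*, *Gatm*, *Il6*, *Lama5*, *Mdh1*, *Meg3*, *Mirg*, *Msr1*, *Myl9*, *Plau*, *Pnpla2*, *Reck*, *Runx2*, *Sema3e*, *Slc16a3*, *Slc2a1*, *Snai1* and *Sox9*, with an adjusted p of 0.014 (*Cs*) to 0.16 (*Gatm*) and no change of direction. Most of these calls also depended on other libraries. *Adcy7*, *Bdnf*, *Gatm*, *Lama5*, *Plau*, *Sema3e* and *Slc2a1* lost theirs without any 1 of the 6. *Meg3* and *Mirg* lost theirs without any of 5, and *Axl*, *Cnn1*, *Col12a1*, *Coq8a*, *Il6*, *Msr1*, *Pnpla2*, *Reck* and *Sox9* without any of 4. *Mdh1* and *Myl9* lost theirs without any of 3 libraries. *Cs*, *Ctss* and *Runx2* lost theirs without either of 2, and *Adgre1*, *Cyp2e1*, *Slc16a3* and *Snai1* without siCtrl replicate 2 alone. Of the rest, *Ccnd1* lost it without siCtrl replicate 3 (adjusted p = 0.051) or siH19 replicate 1 (adjusted p = 0.052), and *Hadha* and *Sdha* fell under the fold minimum without siH19 replicate 3. The summed FPKM of the 6 libraries were 800852 to 833470, the 10 most abundant genes held 14.01% to 14.59% of them, and relative depth, read from the steps between low values, was 0.966 to 1.0 in siCtrl and 0.872 to 0.973 in siH19.

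**Figure D1:**
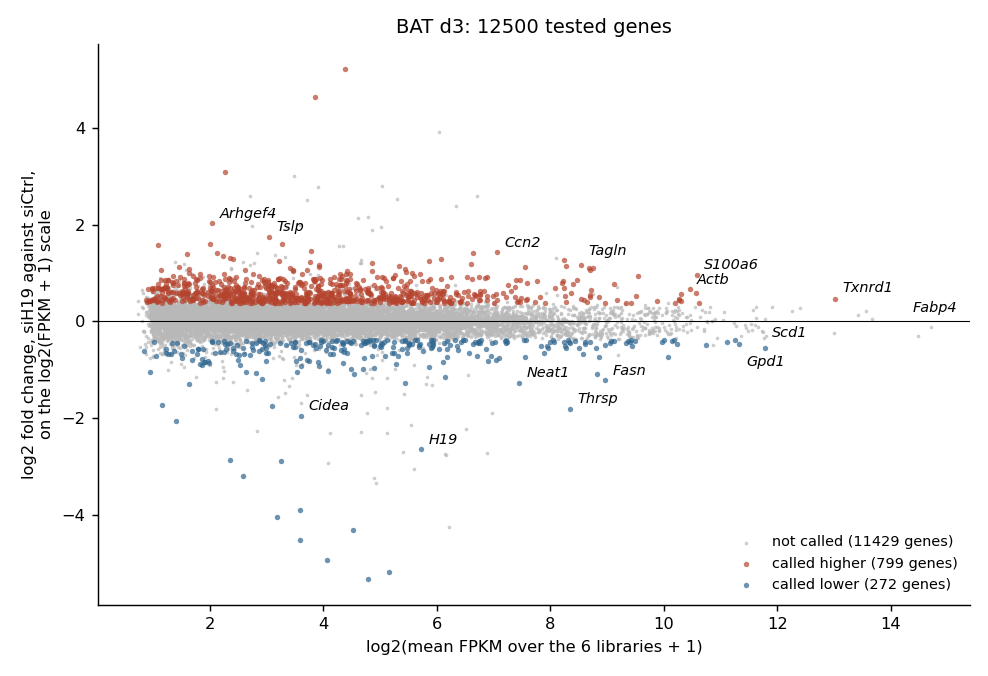
Log2 fold change of siH19 against siCtrl in BAT d3 for 12500 genes (y axis, log2(FPKM + 1) scale) by their mean level over the 6 libraries (x axis, log2), with 799 genes called higher and 272 called lower in colour. The named lower genes spread from *Cidea* at 18.5 FPKM to *Scd1* at 4170 FPKM in siCtrl.

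**Figure D2:**
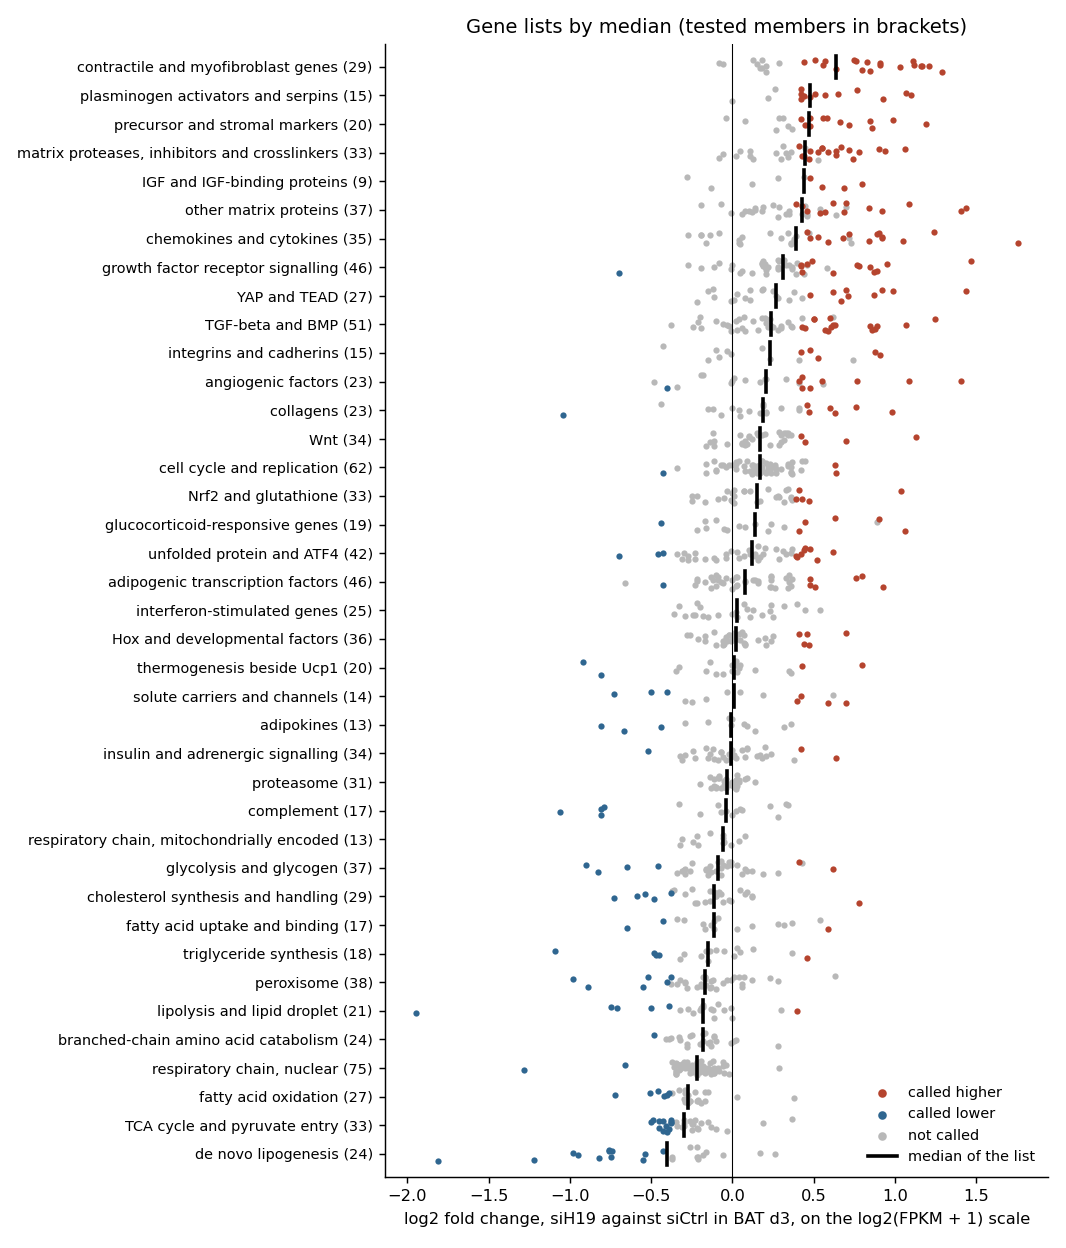
Log2 fold change of each tested member (points) of 39 gene lists in BAT d3, ordered by the list's median (black bars), with called genes in colour. Contractile genes stand at one end with a median of 0.64 and fatty acid synthesis at the other with a median of -0.40, while the proteasome and the mitochondrially encoded respiratory chain lie close to 0.

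Many genes of fatty acid synthesis fell. Of 24 tested members 12 were called lower and none higher (median -0.40, against 0.05 over all genes), including all 6 genes that turn citrate and acetate into palmitate. Fatty acid synthase *Fasn* (GRCm38 chromosome 11, 120805846 to 120824547, minus strand) was listed at 704, 708 and 683 FPKM in siCtrl and at 326, 308 and 267 FPKM in siH19 (log2 fold change -1.22, standard error 0.073, adjusted p = 0.0013). The largest fall of the list was that of *Thrsp*, a nuclear factor that promotes lipogenic transcription and responds to thyroid hormone, from 411, 546 and 567 to 128, 151 and 151 FPKM (-1.81, standard error 0.13, adjusted p = 0.0017). In both genes the groups were separated by far more than their spread. The acetyl-CoA carboxylases *Acaca* (170 to 100 FPKM, log2 fold change -0.76) and *Acacb* (28.7 to 14.0 FPKM, -0.98), which make malonyl-CoA, fell, as did ATP citrate lyase *Acly* (153 to 85.8 FPKM, -0.82), acetyl-CoA synthetase *Acss2* (75.6 to 38.6 FPKM, -0.95) and the citrate carrier *Slc25a1* (366 to 250 FPKM, -0.55). Malic enzyme *Me1*, a source of NADPH, fell from 578 to 345 FPKM (-0.74), the only call among 4 NADPH genes. The stearoyl-CoA desaturase *Scd1* was the most abundant member and fell by 1310 FPKM, from 4130, 4240 and 4130 to 2790, 2900 and 2880 FPKM (-0.54, standard error 0.03, adjusted p = 0.0013). Among the transcription factors of the list, *Srebf1* (-0.43) and the carbohydrate sensor *Mlxipl* (-0.75) fell, whereas the liver X receptor *Nr1h3* was not called (-0.22, adjusted p = 0.21). Desaturation and elongation beyond *Scd1* and its paralog *Scd3* gave no call in 6 further genes, among them the elongase *Elovl6* (4.27 against 4.96 FPKM, adjusted p = 0.31).

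Triglyceride assembly, storage and breakdown changed in selected steps. Of 18 genes of triglyceride synthesis 4 were lower and 1 higher, among them *Pck1*, which supplies glycerol 3-phosphate from pyruvate (27.9, 30.7 and 33.2 FPKM against 12, 16.4 and 13.5 FPKM, log2 fold change -1.09, adjusted p = 0.0035). The glycerol 3-phosphate dehydrogenase *Gpd1* fell by 827 FPKM from a siCtrl mean of 2990 FPKM (-0.47), the acyltransferase *Agpat2* fell by 0.48 and the phosphatidate phosphatase *Lpin1* by 0.45, while *Dgat2*, the last acyltransferase of the pathway, was not called (-0.15). Of 21 genes of lipolysis and the droplet, 5 were lower and 1 was higher. They included the triglyceride lipase *Pnpla2* (2780 to 2130 FPKM, -0.39), its relative *Pnpla3* (14.1 to 8.01 FPKM, -0.75) and the droplet coat protein *Plin5* (34.7 to 20.9 FPKM, -0.71), which ties droplets to mitochondria. Hormone-sensitive lipase *Lipe* (-0.32, adjusted p = 0.0031) and perilipin *Plin1* (-0.18, adjusted p = 0.023) stayed under the 1.3-fold minimum. Without siCtrl replicate 2 the droplet list had 3 lower and no higher members. Among 17 genes of fatty acid uptake and binding 2 were lower and 1 was higher, with *Fabp5* lower (2550 to 1900 FPKM, -0.43) and the far more abundant *Fabp4* not called (27800 against 25700 FPKM, -0.11, adjusted p = 0.10).

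The tricarboxylic acid (TCA) cycle and the entry of pyruvate showed small falls. Of 33 tested genes 12 were lower and none higher, 31 had a fold change below 0, and the median was -0.30. *Ogdh*, a subunit of 2-oxoglutarate dehydrogenase, fell most, from 286, 296 and 280 FPKM in siCtrl to 211, 200 and 197 FPKM in siH19 (log2 fold change -0.50, standard error 0.042, adjusted p = 0.0020). Citrate synthase *Cs* (774 to 593 FPKM, -0.38), the succinate dehydrogenase subunit *Sdha* (1290 to 972 FPKM, -0.41), malate dehydrogenase *Mdh1* (1320 to 1010 FPKM, -0.39) and the mitochondrial pyruvate carrier *Mpc1* (583 to 415 FPKM, -0.49) belonged to the same group. Because these falls lie near the 1.3-fold minimum, the number of calls dropped to 6 without siCtrl replicate 2 and to 7 without siH19 replicate 1. In fatty acid oxidation 6 of 27 genes were lower, none higher and a median of -0.27. *Cpt1b*, which loads fatty acids onto carnitine in muscle and brown fat, fell from 148, 148 and 165 FPKM to 91.3, 94.7 and 93.0 FPKM (-0.72, standard error 0.054, adjusted p = 0.0018), *Acadm* from 1400 to 1020 FPKM (-0.46) and *Hadha* from 822 to 622 FPKM (-0.40). Of 38 peroxisomal genes 6 were lower and none higher (median -0.17), with the thiolase *Acaa1b* in front (33.8 to 16.4 FPKM, -0.98).

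The respiratory chain itself was nearly uniform and rarely passed the fold minimum. Of 75 nuclear-encoded subunits 74 were below 0 (median -0.22), but only the muscle-type and brown-fat-type cytochrome c oxidase subunits *Cox8b* (48.9, 60.6 and 71.7 against 19.3, 27.9 and 25.9 FPKM, log2 fold change -1.28) and *Cox7a1* (290 to 182 FPKM, -0.66) were called. The number called lower was 12 with trimmed-mean scaling, and it was 8 without siCtrl replicate 1 or without siH19 replicate 3. *Atp5b*, the most abundant of these subunits, fell below its siCtrl range without reaching 1.3-fold (3950 against 3200 FPKM, -0.30, adjusted p = 0.0057). None of the 13 mRNAs encoded by mitochondrial DNA was called by limma (median -0.06, 5 lower and 0 higher at an unadjusted p under 0.05, beside 11% and 20.3% of all genes), the most abundant being *mt-Atp8* at 25200 against 20300 FPKM (-0.31, adjusted p = 0.0048). Of 24 genes of branched-chain amino acid breakdown 1 was called lower, and 5 were with trimmed-mean scaling, 3 without siCtrl replicate 1 or siH19 replicate 3, and 2 without siH19 replicate 1.

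Glucose and sterol metabolism changed at single steps. The insulin-regulated glucose transporter *Slc2a4* fell from 80.5, 91.6 and 89.4 to 45.5, 50.8 and 50.0 FPKM (log2 fold change -0.83, adjusted p = 0.0020), while *Slc2a1*, the transporter of growing cells, rose from 13.5 to 18.2 FPKM (0.41, adjusted p = 0.042, not called with trimmed-mean scaling). The lactate exporter *Slc16a3* rose from 4.17 to 6.95 FPKM (0.62), and the glycogen-targeting phosphatase subunit *Ppp1r3b* fell from 6.48 to 3.04 FPKM (-0.90). Beside 6.39% higher and 2.18% lower among all genes, 2 of 37 genes of glycolysis and glycogen were higher and 4 lower (median -0.09). Without siCtrl replicate 2 they were 0 and 3. Sterol synthesis had 5 of 20 genes lower and none higher, among them the demethylase *Cyp51* (233 to 140 FPKM, -0.73), and the cholesterol esterifying enzyme *Soat1* rose from 12.8 to 22.6 FPKM (0.78). Of hormone input, 2 of 34 insulin and adrenergic genes were higher and 1 was lower (median -0.01), near the 6.39% and 2.18% of all genes. The one that fell was the β3-adrenergic receptor *Adrb3* (38.8, 44.2 and 46.4 against 29.1, 29.4 and 30.9 FPKM, -0.52, adjusted p = 0.0071). Of 20 thermogenic genes other than *Ucp1*, the nuclear receptor *Ppara* (18.8 to 9.37 FPKM, -0.92) and the coactivator *Ppargc1a* (13.5 to 7.28 FPKM, -0.81) were lower, whereas the creatine kinase *Ckb* was higher (14.4 to 25.8 FPKM, 0.80), as was *Gatm*, a creatine synthesis gene (0.43), without reaching the threshold after trimmed-mean scaling.

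**Figure D3:**
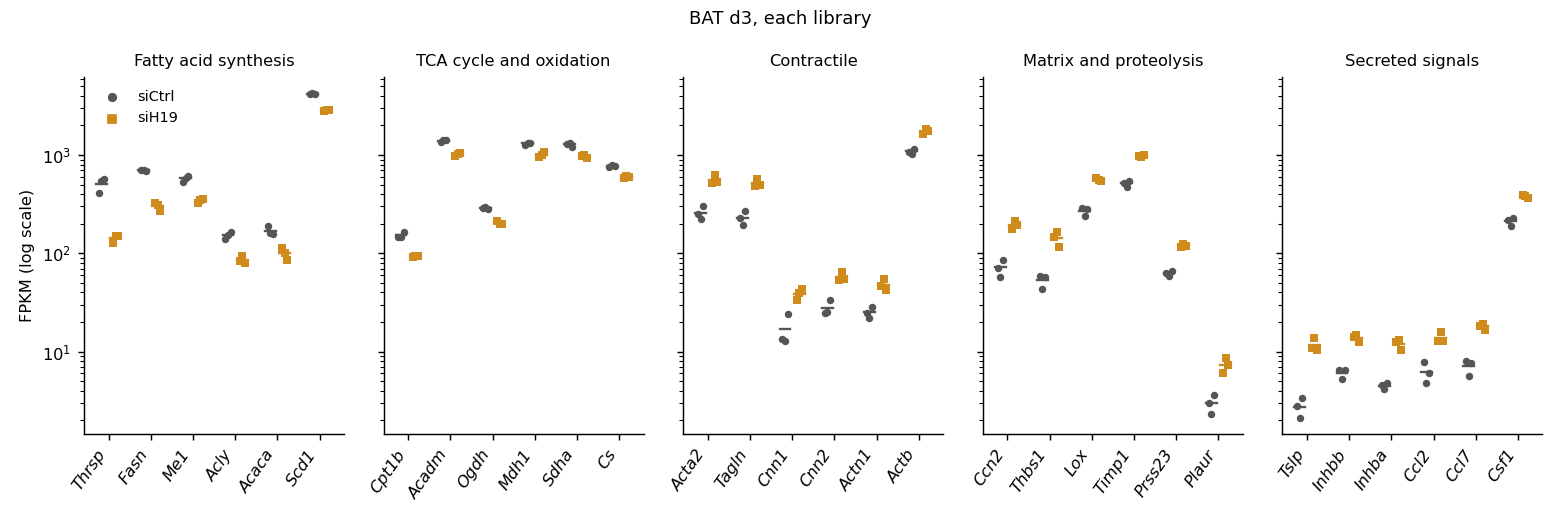
FPKM of 30 genes in each BAT d3 library (log scale), with siCtrl as circles, siH19 as squares and a line at each group's mean. In all 30 genes the 3 siH19 libraries lie on 1 side of the 3 siCtrl libraries, below in both metabolic panels and above in the other 3 panels. The genes were picked from the called ones, so this separation follows from that choice.

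Contractile and actin-binding genes rose as a group. Of 29 tested members 19 were higher and none lower, with a median of 0.64, and 17 of them remained so with trimmed-mean scaling. Smooth muscle actin *Acta2* (GRCm38 chromosome 19, 34241090 to 34255336, minus strand) was listed at 249, 224 and 305 FPKM in siCtrl and at 514, 626 and 528 FPKM in siH19 (log2 fold change 1.11, standard error 0.13, adjusted p = 0.0038). *Tagln*, an actin crosslinker, rose from 229, 194 and 269 to 480, 575 and 493 FPKM (1.16, standard error 0.13, adjusted p = 0.0033). The lowest siH19 library stood well above the highest siCtrl library in both. The myosin light chain *Myl9* (39.1 to 93.3 FPKM, 1.29), the calponins *Cnn1* (16.9 to 38.9 FPKM, 1.21) and *Cnn2* (28.0 to 57.8 FPKM, 1.03), tropomyosin *Tpm2* (117 to 257 FPKM, 1.12) and α-actinin *Actn1* (25.1 to 48.0 FPKM, 0.91) followed. Cytoplasmic actin *Actb*, which is not in this list and is often used as a reference gene, gained 647 FPKM, from 1080, 1030 and 1150 to 1640, 1820 and 1740 FPKM (0.67, standard error 0.056, adjusted p = 0.0020). The most abundant member of the list, *Myl6*, was not called (497 against 577 FPKM, 0.21, adjusted p = 0.03), nor were vinculin *Vcl* (0.15, adjusted p = 0.33) and the serum response factor *Srf* itself (9.70 against 11.1 FPKM, 0.18, adjusted p = 0.098). These transcripts are precursor transcripts as well, and siCtrl cells at d0 held 1460 FPKM of *Acta2* and 8540 FPKM of *Actb*. Mural and smooth muscle markers moved little beside them, with 1 of 4 tested markers higher, a gene also counted as a skeletal muscle marker. Of the 8 markers, 4 were under 1 FPKM in all 6 libraries and none was at 0 throughout. Their summed level was 84.7 to 97.5 FPKM in siCtrl and 102 to 116 FPKM in siH19. Their part in the result was not tested.

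Many contractile genes carry a CArG box, the sequence bound by serum response factor, close to their start. Only its strict form was searched here (CCWWWWWWGG, W being A or T), so sites that vary from it were not counted. In windows from 250 bases before to 50 bases after the start (RefSeq, GRCm38.p6, either strand), 1.57% of 9304 tested genes with a window held a CArG box, as did 19 of 583 genes called higher (3.26%), 2 of 187 called lower (1.07%) and 5 of 27 contractile genes (18.5%). All boxes of these 5 genes are shown in capitals, 2 genes that rose and 3 that were not called, to set a box beside a change and beside none.
*Cnn2*, called higher, chr10:79988534-79988563, plus strand: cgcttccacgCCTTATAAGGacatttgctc
*Myl9*, called higher, chr2:156775293-156775322, plus strand: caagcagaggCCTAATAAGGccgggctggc
*Myl6*, not called, chr10:128493040-128493069, minus strand: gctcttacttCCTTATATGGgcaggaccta
*Srf*, not called, chr17:46556205-46556234, minus strand: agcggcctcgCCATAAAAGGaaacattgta
*Srf*, not called, chr17:46556225-46556254, minus strand: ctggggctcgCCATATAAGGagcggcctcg
*Vcl*, not called, chr14:20929161-20929190, plus strand: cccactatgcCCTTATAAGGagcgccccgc
In this order the boxes began at -56, -161, -50, -62, -82 and -227 relative to the start. Among contractile genes called higher, 2 of 17 with a window held a box (11.8%). The letters GGAATG are the core of the TEAD site, which can share bases with a CArG box only at its edge. They stood on either strand in 14.2% of all windows, 18.0% of those called higher and 15% of those called lower. The same letters stood in 8 of 12 windows of YAP and TEAD targets (66.7%) and 12 of 27 of contractile genes (44.4%). For contractile genes called higher the count was 6 of 17 (35.3%). These matches describe the sequence and do not show binding.

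Of 33 matrix proteases, inhibitors and crosslinkers 18 were higher and none lower (median 0.45), including all 4 tested inhibitors. *Timp1* (GRCm38 chromosome X, 20870166 to 20874735, plus strand), a secreted inhibitor of metalloproteinases and the most abundant of the list, rose from 524, 468 and 549 to 987, 963 and 1010 FPKM (log2 fold change 0.94, standard error 0.062, adjusted p = 0.0013). *Timp3* (9.68 to 18.9 FPKM, 0.90), *Timp2* (72.4 to 113 FPKM, 0.64) and the membrane-anchored inhibitor *Reck* (2.84 to 4.56 FPKM, 0.53) rose beside the proteases *Mmp2* (52.6 to 73.4 FPKM, 0.47) and *Mmp14* (28.3 to 43.1 FPKM, 0.59). Lysyl oxidase *Lox*, which crosslinks collagen and elastin, rose from 287, 241 and 283 to 587, 558 and 545 FPKM (1.06, standard error 0.073, adjusted p = 0.0015). Among 37 other matrix proteins 13 were higher and none lower (median 0.43), led by *Ccn2*, also called connective tissue growth factor (71.6, 57.3 and 86.5 against 175, 213 and 193 FPKM, 1.44, standard error 0.15, adjusted p = 0.0031), and thrombospondin *Thbs1* (59.1, 43.0 and 57.4 against 148, 166 and 115 FPKM, 1.41). Without siCtrl replicate 1 that list had 8 higher members. *Sparc*, the most abundant of them, did not reach 1.3-fold (1620 against 1990 FPKM, 0.29). Collagens were mixed, with 6 of 23 higher and 1 lower (3 and 1 without siCtrl replicate 2). *Col12a1* rose from 41.0, 27.9 and 32.8 to 83.6, 74.6 and 48.5 FPKM (0.98, adjusted p = 0.03) and *Col5a2* from 124 to 193 FPKM (0.63), *Col7a1* fell from 7.36 to 3.09 FPKM (-1.04, adjusted p = 0.0065), and the most abundant, *Col3a1* (0.19, adjusted p = 0.043) and *Col1a1* (0.30, adjusted p = 0.13), were not called.

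Plasminogen activators, which activate plasmin at the cell surface, were listed together with a wider set of serpins. All 15 tested members had a fold change above 0 and 12 were called higher (median 0.48), 9 of them with trimmed-mean scaling. The calls were 5 of 5 in the role of proteases and receptor and 7 of 10 serpins, not all of which belong to the plasminogen system. The urokinase receptor *Plaur* (2.99, 2.32 and 3.62 against 6.04, 8.70 and 7.35 FPKM, log2 fold change 1.07) and the activators *Plat* (4.31 to 7.32 FPKM, 0.65) and *Plau* (1.42 to 2.24 FPKM, 0.42, not called with trimmed-mean scaling) rose. The secreted protease *Prss23* rose from 62.8 to 121 FPKM (0.93), though its reads cannot be told apart from those of *Prss23os* on the opposite strand. Of 15 integrins and cadherins 5 were higher and none lower, with the fibronectin receptor chain *Itga5* in front (25 to 47.5 FPKM, 0.91), and 3 were higher without siCtrl replicate 2 or without siH19 replicate 1.

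Targets of the coactivators YAP and TAZ, which respond to cell shape and tension, included 8 of 17 called higher and none lower (median 0.43). Besides *Ccn2* these were led by *Ccn1* (81.5, 71.1 and 91.2 against 148, 156 and 157 FPKM, log2 fold change 0.92, adjusted p = 0.0029) and the receptor kinase *Axl* (36.2, 42.7 and 42.1 against 93.6, 77.5 and 56.0 FPKM, 0.87, adjusted p = 0.023). The most abundant target, *Amotl2*, was not called (167 against 180 FPKM, 0.11, adjusted p = 0.27), and neither was the classical target *Ankrd1* (9.77 against 13 FPKM, 0.38, adjusted p = 0.03). Among 11 partners and regulators of these coactivators 1 was called, the cofactor *Vgll3*, which rose from 12.2 to 25.1 FPKM (0.99). Several of these targets are matrix or protease genes and were counted in those lists as well.

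Of the 51 tested genes of transforming growth factor β (TGF-β) and bone morphogenetic protein signalling 16 were higher and none lower (median 0.24; 15 and 1 after rescaling). They were 7 of 12 ligands, 5 of 13 antagonists, 2 of 11 receptors and 2 of 15 Smads and targets. These roles are broad, since a procollagen proteinase was counted as a ligand and the latent TGF-β binding proteins as antagonists. The difference between the roles was not tested. The activin subunit *Inhba* rose from 4.54, 4.19 and 4.77 to 12.5, 13.2 and 10.5 FPKM (log2 fold change 1.25, standard error 0.10, adjusted p = 0.0020), the related *Inhbb* from 6.10 to 13.9 FPKM (1.07) and *Tgfb3* from 6.56 to 10.7 FPKM (0.63). *Tgfb1* did not differ beyond its spread (9.56 against 10.1 FPKM, 0.07, adjusted p = 0.59). Follistatin *Fst*, which binds activins, rose with them (20.9 to 32.0 FPKM, 0.59). With no filter on low FPKM 10 genes of this list were called.

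Of 15 growth factors for receptor kinases 7 were higher and 1 was lower (median 0.43), and of 14 receptors 3 were higher. The epidermal growth factor (EGF) receptor ligands *Ereg* (0.730 to 2.33 FPKM, log2 fold change 0.95) and *Hbegf* (0.550 to 1.67 FPKM, 0.78) were higher from low levels. With *Bdnf* they reached 1 FPKM in siH19 libraries only, so that 4 of the 7 ligands passed the filter through siCtrl libraries as well. *Fgf21*, a metabolic hormone of stressed liver and fat, was the ligand that fell (6.07 to 3.37 FPKM, -0.70), and the transcription factor *Fosl1*, which growth factors induce, rose from 14.0 to 26.2 FPKM (0.85). Of 34 Wnt pathway genes 4 were higher and none lower, beside 6.39% and 2.18% of all genes. A fold change above 0 was found in 28 of the 34 (median 0.17). Among the called genes was *Ccnd1*, a cyclin that is also a general growth target (12.1, 6.27 and 7.90 against 21.2, 18.7 and 19.2 FPKM, 1.13, adjusted p = 0.015). The count of higher Wnt genes was 2 without siCtrl replicate 3 or without siH19 replicate 1.

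Of 35 tested cytokines, chemokines and their receptors 14 were higher and none lower (median 0.39). The epithelial and stromal cytokine *Tslp*, the protein-coding gene with the second largest rise by the naming rule, went from 2.77, 2.11 and 3.37 to 10.9, 13.8 and 10.3 FPKM (log2 fold change 1.76, standard error 0.16, adjusted p = 0.0025). The monocyte attractants *Ccl2* (7.78, 4.78 and 6.06 against 12.8, 15.7 and 12.7 FPKM, 1.05) and *Ccl7* (8.01, 5.64 and 7.67 against 18.1, 19.2 and 16.8 FPKM, 1.24) rose, and so did the macrophage growth factor *Csf1* (212 to 380 FPKM, 0.84) and *Il6* (1.74 to 2.78 FPKM, 0.46). Prostacyclin synthase *Ptgis* (5.39 to 10.8 FPKM, 0.89) rose, as did the cyclooxygenase *Ptgs1* (11.6 to 22.9 FPKM, 0.92). None of 25 interferon-stimulated genes was called by limma, and 1 was called lower with trimmed-mean scaling, without siCtrl replicate 3 or without siH19 replicate 2. At an unadjusted p under 0.05 there were 3 higher and 3 lower, beside 20.3% and 11% of all genes. Among 23 angiogenic ligands 8 were higher and 1 lower (4 and 0 without siCtrl replicate 2, 4 and 1 without siCtrl replicate 3), including adrenomedullin *Adm* (10.4 to 18.6 FPKM, 0.77), while *Vegfa*, the most abundant, was not called (98.1 against 76.8 FPKM, -0.34, adjusted p = 0.053).

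Insulin-like growth factors and their binding proteins gave 4 calls among 9 tested genes, all higher, with *Igfbp7* rising from 347, 324 and 343 to 491, 489 and 508 FPKM (log2 fold change 0.55, standard error 0.039, adjusted p = 0.0016). Of 21 chaperones and sensors of the endoplasmic reticulum 7 were higher and none lower (median 0.29, 4 higher with trimmed-mean scaling), with *Hsp90b1* rising from 599 to 862 FPKM (0.52), and 3 of 21 targets of ATF4, the factor of amino acid stress, were lower and 1 higher (median -0.11), with asparagine synthetase *Asns* falling from 173 to 128 FPKM (-0.43) and *Trib3* from 15.7 to 11.1 FPKM (-0.46).

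Antioxidant genes under the factor Nrf2 gave 5 higher of 33 (2 with trimmed-mean scaling, 3 without siCtrl replicate 2 and 8 without siCtrl replicate 3) and none lower. *Nqo1*, a quinone reductase, rose from 13, 13.1 and 12.6 to 28.6, 25.6 and 28.6 FPKM (log2 fold change 1.04, standard error 0.064, adjusted p = 0.0013). Thioredoxin reductase *Txnrd1* had the largest gain in FPKM of any gene by the naming rule, from 7120, 6870 and 7020 to 10100, 9780 and 9180 FPKM (0.47). Among 19 glucocorticoid-responsive genes 5 were higher and 1 lower, including the kinase *Sgk1* (22.5 to 42.4 FPKM, 0.90). Cell division genes gave few calls, with 2 of 62 higher and 1 lower, beside 6.39% and 2.18% of all genes. Yet 50 of the 62 had a fold change above 0, beside 59.5% of all genes (median 0.17, against 0.05). One of the higher genes was the ribonucleotide reductase subunit *Rrm2* (53.4 to 83.9 FPKM, 0.64). Without siCtrl replicate 2 the list had 1 higher and none lower. None of 31 proteasome subunits was called by limma (median -0.03), also with trimmed-mean scaling. At an unadjusted p under 0.05 there were 6 lower and 0 higher, beside 11% and 20.3% of all genes.

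Of 20 tested repressors of adipogenesis 5 were higher and none lower (median 0.30), and of 26 activators 1 was higher and 1 lower (median -0.02). The difference between these roles was not tested. The osteogenic factor *Runx2* rose from 2.34, 1.55 and 1.69 to 5.64, 3.46 and 4.36 FPKM (log2 fold change 0.93, adjusted p = 0.017), *Gata2*, which keeps precursors from differentiating, from 1.94, 1.09 and 1.35 to 3.28, 3.23 and 3.19 FPKM (0.80, adjusted p = 0.013), *Sox9* from 0.922 to 1.69 FPKM (0.48) and *Snai1* from 25.4 to 35.8 FPKM (0.48). The most abundant activator, *Cebpa*, was not called (656 against 598 FPKM, -0.13, adjusted p = 0.097). Without siCtrl replicate 2 the whole list gave 2 higher and 1 lower. Precursor and stromal markers had 12 of 20 higher and none lower (median 0.47, 10 with trimmed-mean scaling). *Ly6a*, the surface marker Sca-1, rose from 269, 239 and 248 to 460, 434 and 473 FPKM (0.85, standard error 0.056, adjusted p = 0.0013), the progenitor marker *Pi16* from 2.59 to 4.91 FPKM (0.72) and *Anxa3* from 58.4 to 133 FPKM (1.19). Of 36 Hox and other developmental factors 5 were higher and none lower (3 with trimmed-mean scaling, without siCtrl replicate 2 or without siH19 replicate 1), one of which was *Hoxb9* (0.767 to 1.88 FPKM, 0.70), which reached 1 FPKM in siH19 libraries only.

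Of 13 tested adipokines 3 were lower and none higher. Adipsin *Cfd*, a complement factor of adipocytes, fell from 14.6, 17.2 and 16.5 to 7.68, 9.93 and 8.58 FPKM (log2 fold change -0.81, adjusted p = 0.0056), and neuregulin *Nrg4*, a brown fat hormone, from 19.7, 21.4 and 21.7 to 13.6, 10.9 and 14.3 FPKM (-0.67, adjusted p = 0.0097). Adiponectin *Adipoq* was not called (1760 against 1580 FPKM, -0.15, adjusted p = 0.10). The other 3 of the 4 lower complement genes, among 17 tested, were the C1q chains, which macrophages make. *C1qa* fell from 8.37, 9.04 and 7.83 to 4.33, 2.66 and 3.66 FPKM (-1.06, standard error 0.15, adjusted p = 0.0062), and all its siH19 libraries lay below all its siCtrl libraries. Ion handling genes gave 4 higher and 3 lower of 14 (1 and 3 with trimmed-mean scaling), among them carbonic anhydrase *Car3*, which fell from 1350 to 815 FPKM (-0.73). Without siCtrl replicate 2 they gave 0 and 2, without siH19 replicate 1 they gave 0 and 3, and without siH19 replicate 3 they gave 1 and 2.

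Marker genes of cell types were summed per library. The 10 adipocyte markers summed to 41000 to 42700 FPKM in siCtrl and 37300 to 39600 FPKM in siH19, so that the cultures carried the defining transcripts of adipocytes in both groups, and 1 of the 10 was called lower. The brown markers summed to 986 to 1120 FPKM against 598 to 670 FPKM, with 7 of 11 tested called lower. Most of the brown sum was *Elovl3* (431, 491 and 488 against 278, 292 and 306 FPKM), *Cox7a1* and *Cpt1b*, all called lower. *Ucp1* did not exceed 16.3 FPKM in any library. The regulators *Prdm16*, *Ebf2* and *Zic1* were not called, and their libraries overlapped between the groups. *Dio2* was not called either and ranged from 5.84 to 34.4 FPKM across the libraries of both groups. The stromal markers summed to 2760 to 3060 FPKM against 3400 to 3660 FPKM, with 3 of 9 called higher. Most of the stromal sum was *Col3a1* (1920 to 2110 FPKM against 2190 to 2340 FPKM) and most of the adipocyte sum was *Fabp4*, neither of them called. *Egfl7*, also not called, made up most of the endothelial sum given below. Macrophage markers summed lower in siH19, at 144 to 175 FPKM in siCtrl and 87.8 to 101 FPKM in siH19, with 3 of 7 tested called lower, none higher and none of the 12 at 0 in all libraries. Most of that sum was lysozyme *Lyz2* (122, 116 and 148 against 82.9, 77.7 and 72.5 FPKM, log2 fold change -0.71), and *Adgre1*, a macrophage surface marker, was low throughout (1.87 against 0.816 FPKM, -0.66). The part of this difference in the fall of the C1q genes and in the rise of the chemokines was not tested. Lymphocyte markers were near 0 (0.0437 to 0.166 FPKM, 2 of 8 at 0 throughout), mesothelial markers summed to 1.36 to 3.50 FPKM against 3.49 to 4.24 FPKM, endothelial markers to 36.0 to 42.9 FPKM against 34.2 to 40.3 FPKM, and Schwann cell and neural markers to 7.42 to 8.46 FPKM against 8.30 to 8.52 FPKM. Skeletal muscle markers were higher in siH19, at 268 to 302 FPKM against 316 to 491 FPKM, with 1 of 9 tested called. The called gene is in the mural class too and is the one called there. Most of the sum was *Mylpf* (170, 187 and 217 against 217, 366 and 293 FPKM), which was not called. The part of these markers in the rise of contractile genes was not tested.

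**Figure D4:**
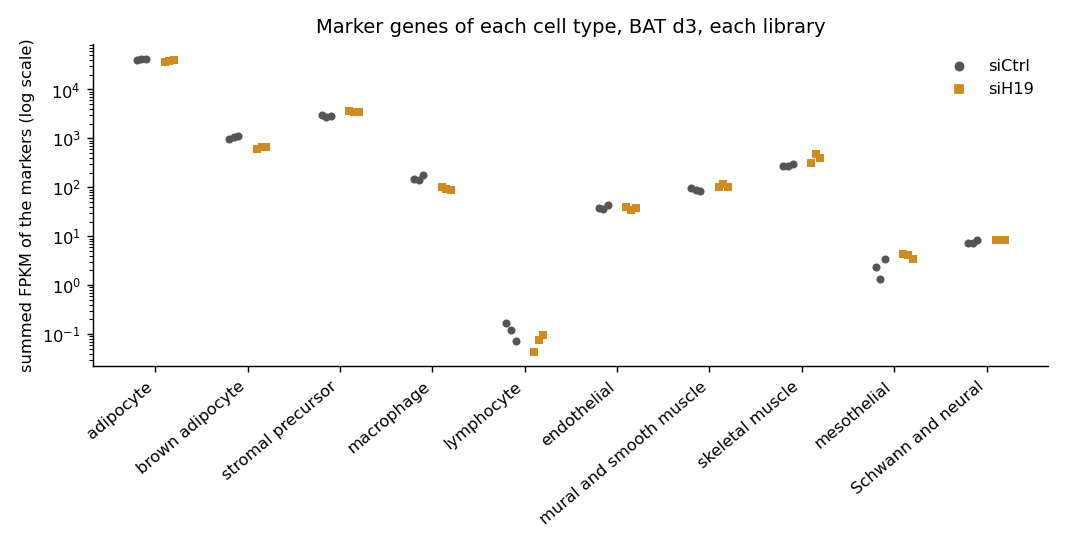
Summed FPKM of the marker genes of each cell type (y axis, log scale) in each BAT d3 library, siCtrl as circles and siH19 as squares. Brown adipocyte and macrophage sums are lower in all 3 siH19 libraries, stromal sums are higher in all 3, and lymphocyte markers lie below 0.2 FPKM in all 6.

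Apart from *H19*, the long noncoding RNA with the largest loss was *Neat1*, the scaffold of nuclear paraspeckles (GRCm38 chromosome 19, 5824708 to 5845478, minus strand), which fell from 202, 257 and 282 to 88.5, 103 and 113 FPKM (log2 fold change -1.27, standard error 0.14, adjusted p = 0.0036). It was not lower in vWAT cells (303 FPKM in siCtrl, log2 fold change -0.01), and the difference between the depots was -1.26 (adjusted p = 0.0022). *Rian*, *Meg3* and *Mirg*, neighbours in an imprinted cluster, rose by 1.01, 0.56 and 0.61, with *Rian* at 30.5, 27.0 and 33.6 against 66.6, 56.4 and 64.0 FPKM. *Prss23os* rose with *Prss23* on the opposite strand (156 to 279 FPKM, 0.83), and because the use of strand in counting is not stated, their reads cannot be told apart. Of protein-coding genes, the guanine nucleotide exchange factor *Arhgef4* rose most (0.621, 0.628 and 0.517 against 5.33, 4.40 and 7.22 FPKM, 2.04, standard error 0.16, adjusted p = 0.0020), although it passed the filter through its siH19 libraries alone, and the ubiquitin hydrolase *Uchl1* and the chromatin protein *Hmga2* also rose from low levels (3.90 to 13.5 FPKM, 1.60, and 1.62 to 5.74 FPKM, 1.36). The prolactin-like genes *Prl2c2* and *Prl2c3* were higher too, but they are near-identical copies whose reads can be assigned to either, so their values are uncertain. The calcium-binding proteins *S100a4* (178 to 427 FPKM, 1.27) and *S100a6* (1040 to 2030 FPKM, 0.97) combined a large rise with a high level. On the falling side *Cidea*, a droplet protein of brown fat, went from 14.2, 19.5 and 21.6 to 3.87, 4.48 and 3.63 FPKM (-1.95), and the cytochrome *Cyp2e1* from 9.46 to 3.68 FPKM (-1.19).

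Before differentiation, siH19 and siCtrl cells from BAT differed in fewer of these 12500 genes, 61 higher (0.488%) and 143 lower (1.14%). Of the 799 genes higher at d3, 29 were also called higher at d0 and 1 was called lower. Of the 272 genes lower at d3, 25 were also called lower at d0. The difference of effects between the days was called for 1072 genes in the direction of higher at d3 (8.58%) and for 175 in the direction of lower (1.4%), or 577 and 315 with trimmed-mean scaling. It covered 467 of the 799 higher and 76 of the 272 lower genes. In fatty acid synthesis 10 of 24 genes had a called difference in the direction of a larger fall at d3. *Fasn* had a log2 fold change of -0.18 at d0 (adjusted p = 0.36) and a difference between days of -1.04 (adjusted p = 0.00091), and *Ccn2*, at 2320 FPKM in siCtrl cells of d0, had one of 0.11 at d0 and a difference of 1.32 (adjusted p = 0.0012). For some other genes called the same way on both days the difference was not called. *Nqo1* had a log2 fold change of 0.89 at d0 (adjusted p = 0.026) and a difference of 0.15 (standard error 0.12, adjusted p = 0.47), *Hbegf*, which had no siCtrl library at 1 FPKM at d3, one of 0.91 with a difference of -0.14 (standard error 0.11, adjusted p = 0.51), *Scd1* one of -0.49 with a difference of -0.06 (standard error 0.078, adjusted p = 0.70) and *C1qa* one of -1.03 with a difference of -0.03 (standard error 0.23, adjusted p = 0.95). Of the 10 adipocyte markers 7 had a called difference in the direction of a smaller loss at d3 and none in the other. *Adipoq* had a log2 fold change of -1.30 at d0 (adjusted p = 0.031) and the difference between days was 1.15 (adjusted p = 0.0053), *Cebpa* had one of -0.85 with a difference of 0.72 (adjusted p = 0.0014), *Lipe* one of -1.07 with 0.74 (adjusted p = 0.0056) and *Gpd1* one of -1.30 with 0.83 (adjusted p = 0.0040). Including *Gpd1*, 4 genes lower at d3 had a called day difference in the direction of a smaller loss at d3.

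In vWAT cells at d3, limma called none of these genes higher (0.0%) and 3 lower (0.024%), of which 1, *H19*, was also lower in BAT cells, while an unadjusted p under 0.05 was met by 642 higher and 604 lower genes. The difference of effects between the depots was called for 983 genes in the direction of higher in BAT (7.86%) and 503 of lower (4.02%), or 687 and 757 with trimmed-mean scaling. The 1486 calls in all became 925 without BAT siCtrl d3 replicate 2, 973 without vWAT siCtrl d3 replicate 3 and 972 without vWAT siH19 d3 replicate 1. The difference covered 589 of the 799 higher and 172 of the 272 lower genes. The genes higher in BAT cells had a median log2 fold change of 0.01 in vWAT cells, and the lower genes one of -0.03. *Thrsp*, at a similar level in vWAT siCtrl cells (396 FPKM), had a log2 fold change of -0.12 there and a difference of -1.68 (adjusted p = 0.0011), *Fasn* had -0.42 and a difference of -0.80 (adjusted p = 0.0014), and *Acta2* had 0.16 and a difference of 0.94 (adjusted p = 0.0070). Not every gene differed between the depots, as the matrix protein *Postn* rose in BAT cells (232 to 375 FPKM, 0.69) and had a fold change of 0.57 in vWAT cells (adjusted p = 0.17) with a difference of 0.12 (standard error 0.12, adjusted p = 0.56). The 2 cell preparations also differed in medium, since per the protocol brown cells received triiodothyronine and indomethacin and white cells did not. White cells received rosiglitazone after induction where brown cells received triiodothyronine, and depot and medium cannot be told apart.

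**Figure D5:**
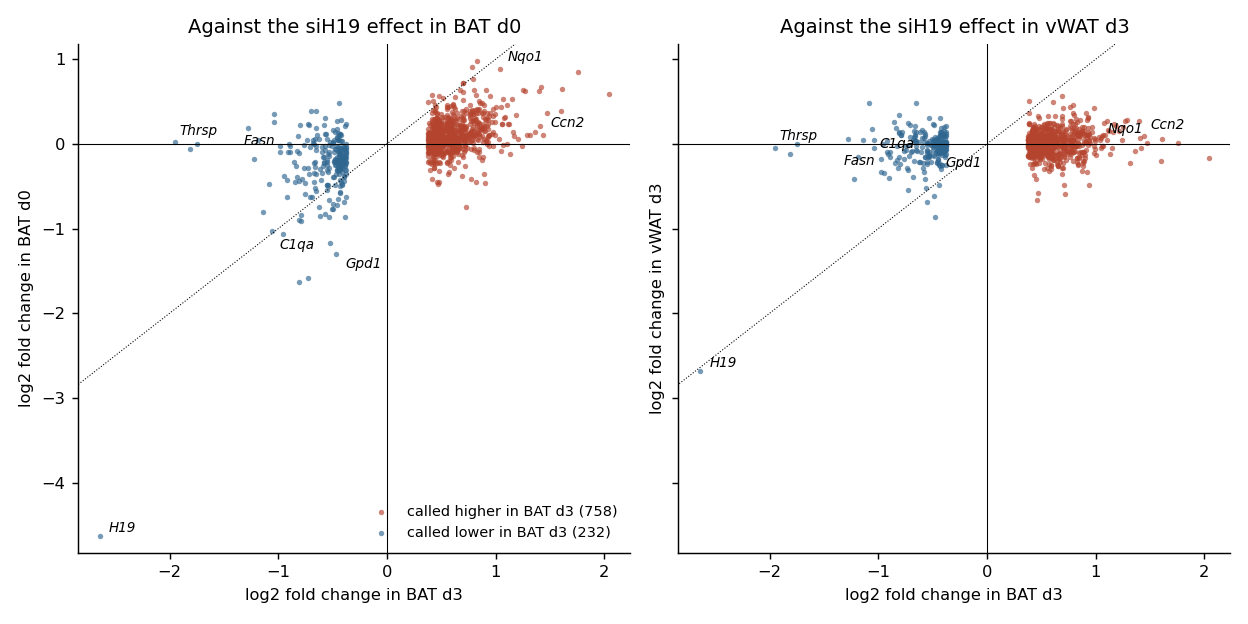
Log2 fold change in BAT d3 (x axis) of the protein-coding genes called there and of *H19*, against their fold change in BAT d0 (left) and vWAT d3 (right), with equal effects on the dotted line. *H19* lies far below 0 in both panels, and *Nqo1* and *C1qa* lie near the line at d0. *Ccn2* and most others lie close to the horizontal at 0, while *Fasn* lies further below it in vWAT d3 than at d0.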

How the data were processed

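RNA-seq libraries of 24 SVF-derived cell samples were read from a single table, of which 6 (BAT d3) form the main comparison and 12 further libraries were used beside them. The values are FPKM as deposited, which the authors made by mapping reads to GRCm38 with TopHat2 2.0.10 and estimating abundance with Cufflinks, given as version 2.2.1 in the submitters' processing notes. The authors tested differences with DESeq2, but the table holds no counts, so log2(FPKM + 1) values were fitted here with limma 3.58.1 (R 4.3.3, eBayes with trend, two-sided), which replaces the authors' count test. Genes needed 1 FPKM in at least 3 of the 6 libraries and counted as changed with a 1.3-fold difference and an adjusted p (Benjamini-Hochberg) below 0.05. Differences between days and depots were interaction terms tested at 0.05 after the same adjustment, whatever their size. Absolute depth is unknown, and no counting interval is given. The use of strand in counting is not given in the sources used here.

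On simulated data for this comparison with 12500 genes, the fit recovered 30 of 50 genes changed 1.5-fold, 43 of 50 changed 2-fold, 49 of 50 changed 4-fold and 45 of 50 lowered to 0.5-fold, with 7 false calls. The simulated noise was independent between genes and libraries, with no offset between libraries. These numbers therefore do not cover errors from scaling or from libraries that share a source. The comparison, the 39 gene lists, the marker lists and the naming rule were chosen with earlier results of these data known. Genes named were *H19*, members of the lists and markers, the called genes with the largest changes in log2 or in FPKM, and those with the largest interactions, leaving out clone names and short RNAs. Alternatives were another pseudocount (0.1), other FPKM filters (5, or none), trimmed-mean and upper-quartile scaling, no fold minimum, a spread over all 24 libraries, a replicate block, and leaving out each library. Sequences came from the study's siRNA list, GENCODE M21 and RefSeq. Tables and plots were made with Python 3.11.15, pandas 2.3.3 and matplotlib 3.10.9. Results for some items are not reported here.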

Additional observations from a re-analysis of the deposited data

Results flagged for a closer look

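The effect of siH19 in brown cells at d3 differed from that in brown cells at d0 for 1072 genes in the direction of higher and 175 in the direction of lower, and from that in vWAT cells at d3 for 983 and 503 genes, by limma interaction terms at an adjusted p under 0.05. Among called genes, 7 were in the 10 largest differences in the same direction on both counts. On the side of higher in BAT d3, *Ccn2* differed by 1.32 from d0 and by 1.35 from vWAT, the chromatin protein *Hmga2* by 1.22 and 1.45, and the potassium channel subunit *Kcnab1* (1.97 to 6.28 FPKM in BAT d3) by 1.22 and 1.54. On the side of lower, *Cidea* differed by -1.96 and -1.89, *Ucp1* by -1.75 and -1.75, *Thrsp* by -1.74 and -1.68, and *Cox8b* by -1.46 and -1.33. *Thrsp* was listed at 0.333 FPKM in siCtrl cells at d0, so little of it could be lost there. The siCtrl levels of *Cidea*, *Ucp1* and *Cox8b* at d0 and in vWAT are not given here, and the same limit could apply to them. Groups of 3 libraries are too small for a check of single outlying libraries.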

How the results depend on the processing

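The number of genes called in BAT d3 (1071) was 2023 with no minimum fold change and 638 to 926 when 1 library was left out, the lowest without siCtrl replicate 2, and it stayed within 1.5 times under the other alternatives, from 754 with no filter on low FPKM to 1306 with the spread of all 24 libraries. The day difference (1247) ran from 834 to 1125 without 1 library, and the depot difference (1486) from 925 to 1461. The cause was not tested. Of 144 named genes that were called, 113 kept the call in every alternative that gave a value, none changed direction, and the calls lost were 17 with no filter on low FPKM (*Adcy7*, *Axl*, *Bdnf*, *Cnn1*, *Col12a1*, *Coq8a*, *Gatm*, *Il6*, *Lama5*, *Meg3*, *Mirg*, *Msr1*, *Myl9*, *Plau*, *Reck*, *Runx2*, *Slc2a1*), 12 with the replicate block (*Adcy7*, *Axl*, *Bdnf*, *Gatm*, *Il6*, *Lama5*, *Mirg*, *Plau*, *Reck*, *Sema3e*, *Slc2a1*, *Sox9*), 3 with either scaling (*Gatm*, *Plau*, *Slc2a1*), 3 with pseudocount 0.1 (*Bdnf*, *Gatm*, *Plau*) and 2 with the spread of all libraries (*Cox7a1*, *Lama5*). Whether replicate numbers pair the samples is not stated in the labels. Deviations of same-numbered siCtrl and siH19 libraries correlated at 0.051, -0.143 and 0.01 across genes. With 3 libraries in a group, these values cannot show whether such libraries shared a culture or animal. With the replicate block 859 genes were called, 818 of them shared, and the day and depot differences came to 833 and 1119. FPKM carry no depth, so low genes such as *Arhgef4* are less certain than their standard errors show.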

Other observations

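Of the 1071 called genes, 802 belonged to no list or marker class. The examples that follow were chosen after their values were seen. Among those that rose were regulators of actin bundles and cell edges, with fascin *Fscn1* at 68.2 FPKM in siCtrl and 127 FPKM in siH19 (log2 fold change 0.89, adjusted p = 0.0013), drebrin *Dbn1* at 32.0 and 62.5 FPKM (0.94, adjusted p = 0.0025) and podoplanin *Pdpn* at 7.55 and 16.7 FPKM (1.06, adjusted p = 0.0030). The small heat shock protein *Cryab* rose from 72.8 to 139 FPKM (0.93, adjusted p = 0.0017) and argininosuccinate synthase *Ass1*, an enzyme of arginine synthesis, from 24 to 54.3 FPKM (1.15, adjusted p = 0.0020).

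Among those that fell were further mitochondrial genes. The coenzyme Q biosynthesis kinase *Coq8a* went from 38.3 to 18.8 FPKM (log2 fold change -0.96, adjusted p = 0.023), the mitochondrial glycerol 3-phosphate dehydrogenase *Gpd2* from 15.7 to 8.62 FPKM (-0.80, adjusted p = 0.0040) and the fission protein *Mtfp1* from 20.3 to 12.4 FPKM (-0.67, adjusted p = 0.0040). *Mid1ip1*, a paralog of *Thrsp* that activates acetyl-CoA carboxylase, fell from 49.3 to 26.2 FPKM (-0.89, adjusted p = 0.0038). Genes that macrophages express fell from low levels, with the scavenger receptor *Msr1* at 3.59 and 1.64 FPKM (-0.78, adjusted p = 0.020) and cathepsin *Ctss* at 7.18 and 4.4 FPKM (-0.60, adjusted p = 0.015). The calls of *Coq8a* and *Msr1* were each lost without any of 4 single libraries, and that of *Ctss* without siCtrl replicate 2 or 3.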
